A study of Mus musculus with 6 samples.

Results

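The 9 genes described here are Mbp, Mobp, Mag, Mog, Cnp, Car2, Cldn11, Mal and Opalin, which encode proteins of the myelin sheath and the carbonic anhydrase of oligodendrocytes. They were taken by gene symbol, and all 9 were found among the 31253 genes counted in every library. The study profiled single cells from the hippocampus of old mice with droplet 3′ RNA sequencing. The Sevoflurane group had 3 libraries from mice that breathed the inhaled anaesthetic sevoflurane at 2% for 6 h, and the Control group had 3 libraries from mice given air. Tissue was taken 24 h later in both groups, and the labels give no strain, sex or exact age. Counts are unique molecular identifiers (UMIs), each standing for 1 captured transcript. CPM are UMI counts scaled to the total of the cells they were summed over.

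Oligodendrocytes wrap axons in myelin, a compacted stack of plasma membrane that speeds impulse conduction and feeds the axon. They arise from oligodendrocyte precursor cells, which pass through a short committed stage in which myelin genes begin to be expressed. Myelin basic protein (Mbp) and Mobp hold the cytoplasmic faces of the sheath together, while Cnp keeps cytoplasmic channels open within it. Mag lies on the membrane that faces the axon, Mog on the outermost surface, and Opalin is a membrane glycoprotein of oligodendrocytes. Cldn11 forms the tight junctions between myelin layers, Mal is a proteolipid that sorts membrane cargo, and Car2 is a cytosolic enzyme that converts carbon dioxide to bicarbonate.

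The genes lie apart in the genome. On GRCm38 (GENCODE M21), Mobp spans chr9:120149707-120181484 on the plus strand, Mag spans chr7:30899176-30914873 on the minus strand and Mal spans chr2:127633226-127656695 on the minus strand. Mog is on chromosome 17, Cnp on chromosome 11 and Opalin on chromosome 19. Car2 and Cldn11 are both on chromosome 3.

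Promoters of 3 members are shown, because all 3 genes are expressed in oligodendrocytes while Mal was also abundant in another cell class. Each is the 250 bases before a RefSeq start (GRCm38.p6), written 5′ to 3′ on the gene's strand. Capitals mark matches on either strand to CTGGNAC, a core motif of the myelin regulatory factor MYRF, or to ACAAAG or ACAATG, core motifs of SOX factors. The Mobp window is chr9:120149492-120149741 on the plus strand, the Mag window chr7:30914864-30915113 on the minus strand and the Mal window chr2:127656696-127656945 on the minus strand.
Mobp: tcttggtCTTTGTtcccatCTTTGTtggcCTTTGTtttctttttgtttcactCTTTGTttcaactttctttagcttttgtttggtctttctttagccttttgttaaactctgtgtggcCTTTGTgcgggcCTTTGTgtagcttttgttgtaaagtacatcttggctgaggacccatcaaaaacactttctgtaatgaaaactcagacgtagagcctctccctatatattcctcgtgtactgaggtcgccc
Mag: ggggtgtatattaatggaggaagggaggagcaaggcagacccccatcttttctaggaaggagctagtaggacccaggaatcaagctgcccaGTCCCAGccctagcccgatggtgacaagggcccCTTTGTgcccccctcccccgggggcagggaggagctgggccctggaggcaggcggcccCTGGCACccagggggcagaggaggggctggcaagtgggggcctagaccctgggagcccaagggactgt
Mal: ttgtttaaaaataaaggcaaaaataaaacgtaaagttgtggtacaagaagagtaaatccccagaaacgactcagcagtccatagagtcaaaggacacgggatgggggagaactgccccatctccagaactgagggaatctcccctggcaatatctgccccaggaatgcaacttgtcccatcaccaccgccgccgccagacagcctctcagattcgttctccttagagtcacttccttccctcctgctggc
The Mobp window held 6 SOX matches and 0 MYRF matches. The Mag window held 2 MYRF matches and 1 SOX match, and the Mal window held 0 of either. The windows of Cldn11 and of another RefSeq start of Mag also held 0 of either, so that this is not particular to Mal. Among all 32851 promoter windows of this length, 16.1% held a MYRF match and 25.2% a SOX match. These are letter matches only.

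The libraries held 54426522 to 70741809 UMIs, and 46876 cells were kept, 6645 to 8996 per library. Clusters were named from markers that exclude the 9 genes. Oligodendrocytes numbered 1660, 1011 and 1082 in Sevoflurane libraries 1 to 3, against 1074, 1244 and 847 in Control libraries 1 to 3. Precursors numbered 239, 220 and 186 in Sevoflurane libraries, against 163, 198 and 138 in Control libraries. Committed precursors were few, at 15 to 29 cells per library, so they are described without a test. Sevoflurane 1 stood apart in carrying 1397 CPM of Xist, the X-inactivation RNA of female cells, against 0.52 to 1.27 CPM in the other 5 libraries. Results below are given without Sevoflurane 1 where that changes a call. The groups also differed in choroid plexus cells, at 0, 2 and 4 in Sevoflurane libraries and 65, 19 and 100 in Control libraries. Ttr, a marker of these cells, stood at 1.86 to 2.65 CPM in Sevoflurane and 71.4 to 441 CPM in Control libraries. Whether this difference in tissue content bears on the results below was not tested.

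The share of oligodendrocytes among kept cells was 14.8% ± 3.19 in Sevoflurane libraries and 14.5% ± 2.14 in Control libraries (SD, n = 3 each, two-sided exact permutation p = 0.9). For precursors the share was 2.56% ± 0.24 in Sevoflurane libraries and 2.29% ± 0.27 in Control libraries (SD, n = 3 each, exact permutation p = 0.3). Committed precursors made up 0.283% ± 0.102 in Sevoflurane libraries and 0.309% ± 0.079 in Control libraries (SD, n = 3 each, exact permutation p = 0.6). The smallest p that 3 against 3 libraries allow is 0.1.

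All 9 genes were higher in oligodendrocytes than in precursors in all 6 libraries. In committed precursors, as CPM pooled over libraries, Mbp stood at 80.0% and Cnp at 77.0% of their own oligodendrocyte level. Cldn11 stood at 60.8% and Mag at 51.3%. The other 5 were lower, with Mal at 31.0%, Mog at 23.7%, Car2 at 22.8%, Opalin at 21.9% and Mobp at 20.1%. Few cells stand behind these shares. Over single libraries Mbp ran from 37.4% to 119%, Opalin from 4.28% to 71.4% and Mobp from 2.08% to 37.0%, the ranges of neighbouring genes overlapped, and differences between genes were not tested.

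Values per cell ran differently, and committed precursors held more UMIs in all (library medians of 4128 to 5835, against 2019 to 2454 in oligodendrocytes). Committed precursors averaged 12.6 Mbp UMIs per cell in Sevoflurane and 14.4 in Control libraries, and oligodendrocytes averaged 7.23 in Sevoflurane and 8.27 in Control libraries. Cnp averaged 0.619 UMIs per committed precursor in Sevoflurane and 0.776 in Control libraries, against 0.420 per oligodendrocyte in both groups. Cldn11 and Mag also averaged more UMIs per cell in committed precursors than in oligodendrocytes in both groups, and the other 5 genes averaged fewer.

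**Figure D1:**
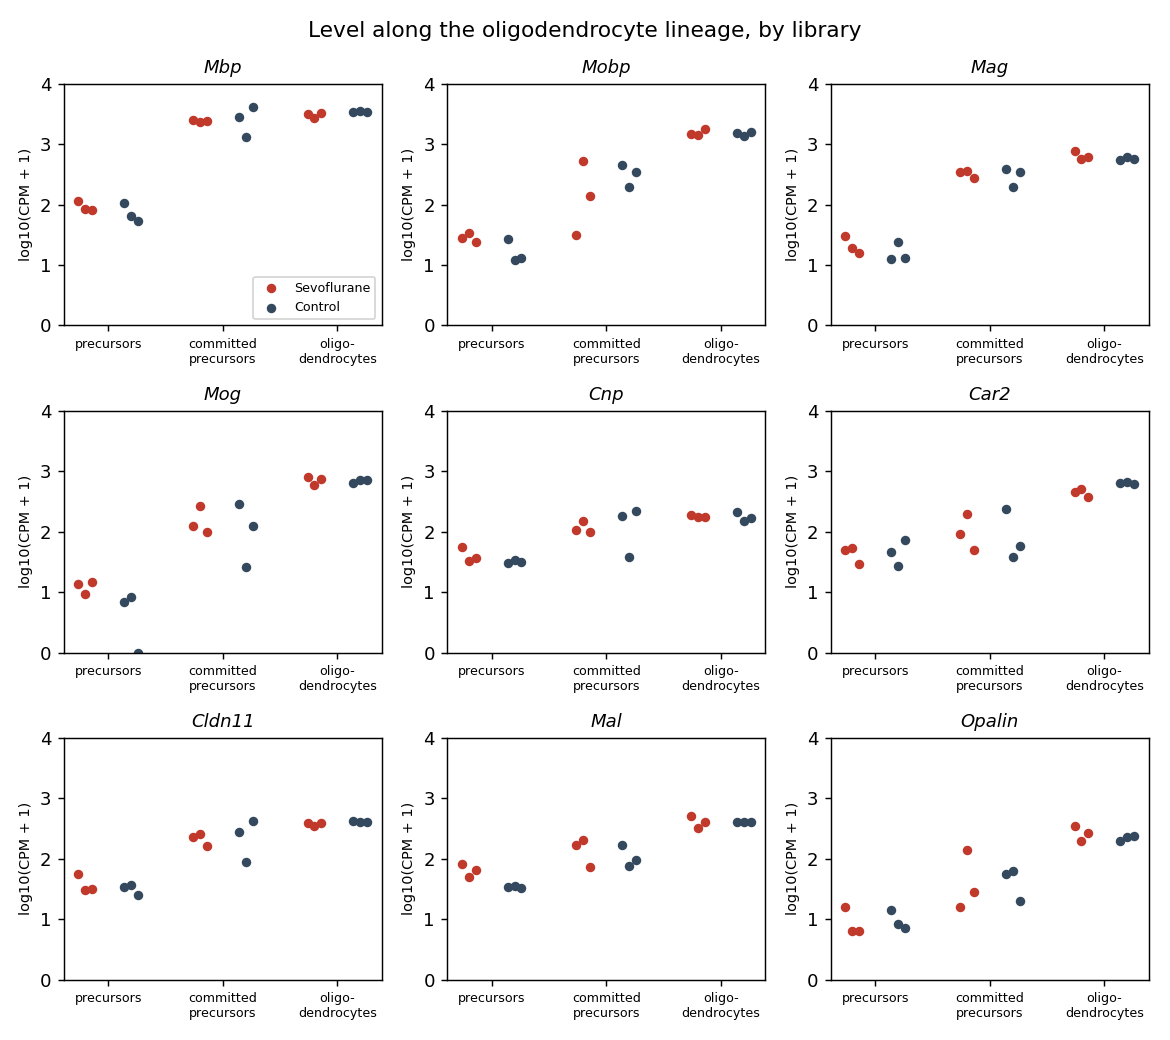
CPM of each gene, as log10(CPM + 1), in precursors, committed precursors and oligodendrocytes, with 1 point per library (Sevoflurane in red at the left of each stage, Control in dark blue at the right). Mbp in committed precursors lies close to its oligodendrocyte level, whereas Mobp, Mog and Opalin lie below theirs.

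Precursors carried few UMIs of these genes, and about as many per cell as cells outside the lineage. Mbp averaged 0.308 UMIs per precursor, against 0.262 per astrocyte, 0.250 per microglial cell and 7.75 per oligodendrocyte (means of 6 libraries). Mobp averaged 0.0813 per precursor, 0.0911 per astrocyte, 0.0909 per microglial cell and 3.63 per oligodendrocyte. After thinning to 1000 UMIs per cell, 1.74% of precursors had a Mobp UMI, against 4.12% of microglia and 71.9% of oligodendrocytes. The median depth of a precursor was 3175 to 3879 UMIs across libraries. Precursor values of Mbp and Mobp were thus near those of cells not known to make them, and a contribution of free RNA to them was not tested apart.

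Oligodendrocytes held most of the counts of some members and a minority of others. They contained 85.0% of all Mobp UMIs, 84.5% of Mog, 76.5% of Opalin and 76.1% of Mag. The shares were 64.4% for Mbp, 54.1% for Cldn11, 44.2% for Car2, 43.3% for Mal and 36.4% for Cnp. Neurons, the most numerous cells, held 46.3% of Cnp and 41.8% of Car2 UMIs.

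To see how far the counts outside oligodendrocytes kept the proportions of oligodendrocytes, each gene's UMIs were divided by the Mobp and Mog UMIs of the same cells. The 7 classes compared were precursors, neurons, astrocytes, microglia, endothelial cells, ependymal cells and fibroblasts, with committed precursors given apart. The ratio of Mog to Mobp was 0.304 to 0.524 in these 7 classes, against 0.468 in oligodendrocytes. Cnp had a ratio of 0.678 to 1.18 in the 7 classes, against 0.0796 in oligodendrocytes. Even the lowest of the 7 was thus 8.52 times the oligodendrocyte value. The lowest of the 7 was 6.11 times the oligodendrocyte value for Mal, 4.51 times for Cldn11 and 4.22 times for Car2, but 1.32 times for Mbp. In precursors the ratio was 1.18 for Cnp and 1.64 for Mal, against 0.0796 and 0.188 in oligodendrocytes. Committed precursors had ratios of 0.289 for Cnp, 0.275 for Mal, 0.509 for Cldn11 and 0.257 for Car2. Each of these was below the lowest of the 7 classes. Their ratio of Mog to Mobp was 0.552. The source of these counts was not tested.

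For some genes 1 of these 7 classes had the highest ratio. Mbp had a ratio of 5.23 in neurons (4.29 to 6.51 over libraries), with precursors next among the 7 at 2.73. Committed precursors, not among the 7, had an Mbp ratio of 5.52 (2.87 to 16.5 over libraries). The Mbp locus is known to give rise to golli transcripts in neurons as well as the classical myelin transcripts, and gene-level counts do not separate them. Car2 was at 2.35 in astrocytes, Cldn11 at 2.02 in fibroblasts and Mag at 0.825 in microglia, but their ranges over libraries (1.25 to 3.39, 0.857 to 5.00 and 0.471 to 1.07) overlapped those of other classes. Mal was at 14.4 in endothelial cells (4.02 to 34.4 over libraries), with precursors next at 1.64 (1.05 to 2.67).

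**Figure D2:**
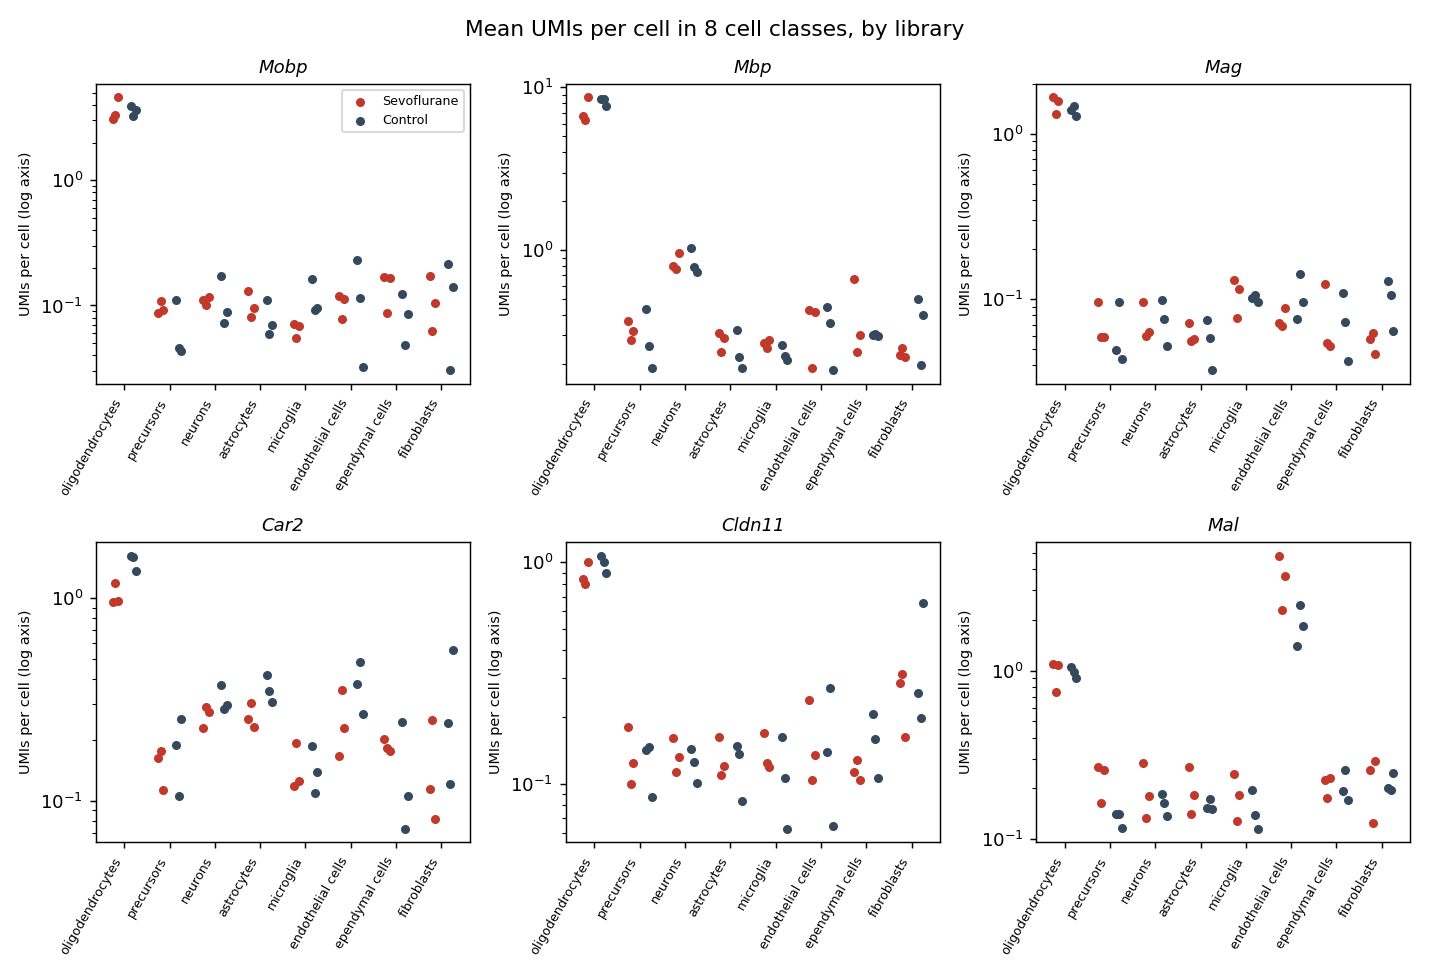
Mean UMIs per cell of 6 of the genes in 8 cell classes on a log axis, with 1 point per library (Sevoflurane in red at the left, Control in dark blue at the right). Mal in endothelial cells, at 1.39 to 4.81 UMIs per cell, lies above its level of 0.743 to 1.10 in oligodendrocytes. Among these 8 classes the other 5 genes plotted are highest in oligodendrocytes. Committed precursors, in which Mbp, Mag and Cldn11 averaged more UMIs per cell than in oligodendrocytes, are not plotted.

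In oligodendrocytes, 0 of the 9 genes passed the test between Sevoflurane and Control libraries (edgeR quasi-likelihood test on class sums, Benjamini-Hochberg adjustment over all genes tested, threshold 0.05). In this class 0.506% of the 12440 genes tested passed, 13 of them (0.105%) higher and 50 (0.402%) lower. At an unadjusted p under 0.05, 1 member and 1668 genes of the class were counted. DESeq2 called 1 member, Car2. The median log2 fold change of the members was -0.04, beside 0.01 for all genes tested. In class sums, fewer transcripts per cell and a changed mixture of cells cannot be told apart.

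Car2 showed the largest difference among the members in oligodendrocytes. It stood at 441, 497 and 366 CPM in Sevoflurane libraries 1 to 3, against 655, 688 and 628 CPM in Control libraries 1 to 3. Every Sevoflurane library was below every Control library. The means were 435 ± 65.7 CPM in Sevoflurane and 657 ± 30.2 CPM in Control (SD, n = 3 each), a log2 fold change of -0.60 ± 0.13 (SE) with an edgeR adjusted p of 0.0682. The call depended on the method. The adjusted p was 0.0025 with DESeq2, 0.000898 with no filter on low counts, 0.0488 with doublets kept and 0.0377 after free RNA was taken off. It lay between 0.0684 and 0.233 when 1 library was left out.

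Car2 did not pass the edgeR test in any other class either. In astrocytes it stood at 89.3, 97.9 and 69.1 CPM in Sevoflurane libraries, against 139, 113 and 114 CPM in Control libraries, which do not overlap (log2 fold change -0.52 ± 0.15 SE, edgeR adjusted p = 0.101, or 0.0224 with no filter on low counts). Among astrocyte genes, 2.08% were called and 10.7% had non-overlapping lower values. In neurons the log2 fold change of Car2 was -0.30 ± 0.12 (SE, edgeR adjusted p = 0.201), and the groups overlapped. Microglia had a log2 fold change of 0.01 ± 0.25 (adjusted p = 0.997) and ependymal cells one of 0.50 ± 0.39 (adjusted p = 0.735).

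Mbp and Cldn11 were the other members whose groups did not overlap in oligodendrocytes. Mbp stood at 3089, 2639 and 3282 CPM in Sevoflurane libraries, against 3438, 3689 and 3548 CPM in Control libraries (log2 fold change -0.24 ± 0.13 SE, edgeR adjusted p = 0.432). Cldn11 stood at 389, 335 and 380.4 CPM in Sevoflurane libraries, against 433, 432 and 412 CPM in Control libraries (log2 fold change -0.21 ± 0.11 SE, edgeR adjusted p = 0.436). Such non-overlap toward lower values was found for 3 of 9 members and for 10.2% of all genes tested in the class.

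The other 6 members overlapped between the groups, with log2 fold changes from -0.04 to 0.21 and edgeR adjusted p of 0.662 to 0.943. Opalin stood at 349, 189 and 266 CPM in Sevoflurane libraries, against 202, 246 and 248 CPM in Control libraries. Mal stood at 506, 312 and 405 CPM in Sevoflurane libraries, against 421, 426 and 412 CPM in Control libraries. For both genes the Sevoflurane libraries included the highest and the lowest of the 6 values. Mag averaged 639 ± 112 CPM in Sevoflurane and 595 ± 34.3 CPM in Control, and Mog averaged 698 ± 118 CPM in Sevoflurane and 714 ± 44.7 CPM in Control (SD, n = 3 each). Mobp averaged 1516 ± 189.6 CPM in Sevoflurane and 1549 ± 125 CPM in Control, and Cnp averaged 175 ± 8.66 CPM in Sevoflurane and 179.8 ± 29.3 CPM in Control.

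**Figure D3:**
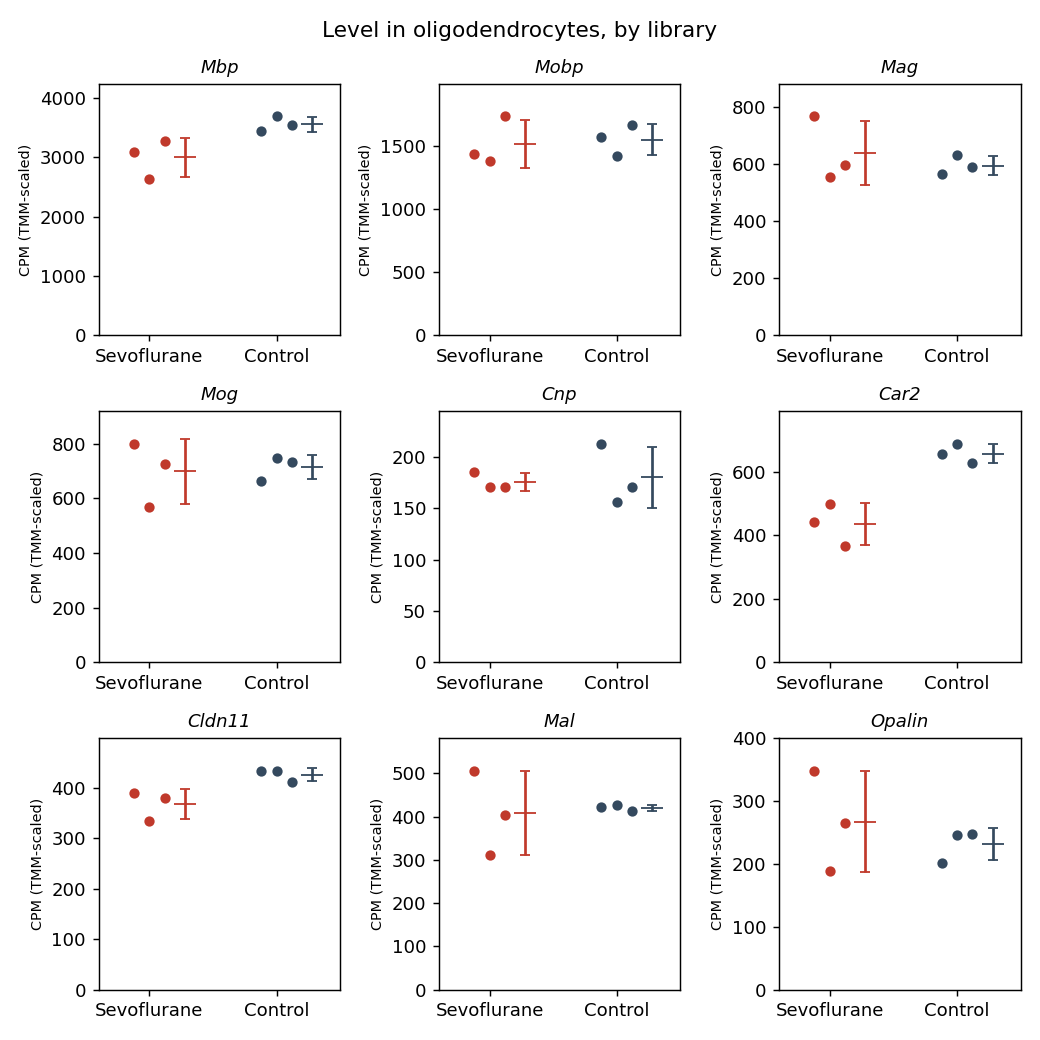
CPM (scaled by trimmed mean of M values) of the 9 genes in oligodendrocytes, with 1 point per library and the mean ± SD beside them (Sevoflurane in red at the left, Control in dark blue at the right). The groups are apart for Car2, Mbp and Cldn11 and overlap for the other 6 genes.

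The oligodendrocytes formed 2 main clusters. Cluster 1 had Il33 and Opalin among its leading genes, and cluster 6 had Anln and Hapln2. Prr5l was among the leading genes of both. Cluster 1 held 74.8%, 76.1% and 70.4% of oligodendrocytes in Sevoflurane libraries, against 60.8%, 55.5% and 64.7% in Control libraries. The shares did not overlap, and they are given as a description because the clusters were built from the same cells. Median depth was 0.356 of the library median in cluster 1 and 0.457 in cluster 6. Whether depth bears on the shares was not tested. Opalin was 1.41 to 2.09 times as high in cluster 1 as in cluster 6 and Mal 1.08 to 1.43 times, in 6 of 6 libraries. Mbp, Mag, Mog and Car2 were lower in cluster 1 in 6 of 6 libraries, with Car2 at 0.809 to 0.994 of its cluster 6 level. Within cluster 1 alone the log2 fold change of Car2 was -0.62 (edgeR adjusted p = 0.094), and within cluster 6 alone it was -0.50 (adjusted p = 0.124).

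In precursors, 7 of the 9 genes had enough counts to be tested, and Mog and Opalin did not. Of these, 0 passed the test, where 0.852% of the 9389 genes tested did. At an unadjusted p under 0.05, 1 member and 1074 genes were counted, and DESeq2 gave no adjusted p for members in this class. Mal stood at 82.2, 48.3 and 65.5 CPM in Sevoflurane libraries, against 35.7, 37.2 and 34.3 CPM in Control libraries. The groups did not overlap, as for 7.14% of genes toward higher values (log2 fold change 0.86 ± 0.24 SE, edgeR adjusted p = 0.0899, or 0.0497 with no filter on low counts). These values rest on 16 to 64 UMIs per library at a level near that of the classes outside the lineage. The other 6 had log2 fold changes of -0.12 to 0.63 and adjusted p of 0.508 to 0.921.

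The difference between the effect in oligodendrocytes and that in precursors was tested for all 9 genes, and 0 passed, where 0.150% of 11996 genes did. At an unadjusted p under 0.05, 3 of the 9 members (Mal, Mog and Mbp) and 869 genes were counted. The precursor side of these was low. Mog had 36 UMIs in precursors over all libraries, and Mbp and Mal there were near their levels in classes outside the lineage. The lowest adjusted p among the members was that of Mal, at -0.89 ± 0.21 (log2, SE, edgeR adjusted p = 0.0853).

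Mal was higher in Sevoflurane than in Control in endothelial cells, which line the blood vessels. It stood at 1039, 613 and 848 CPM in Sevoflurane libraries 1 to 3, against 331, 433 and 453 CPM in Control libraries 1 to 3. The lowest Sevoflurane library was above the highest Control library. The means were 834 ± 214 CPM in Sevoflurane and 406 ± 65.3 CPM in Control (SD, n = 3 each), a log2 fold change of 1.03 ± 0.21 (SE) with an edgeR adjusted p of 0.0178. Mal was 1 of 6 members tested there and was the only 1 called, where 2.25% of the 7781 endothelial genes were called, 1.29% were called higher and 9.46% had non-overlapping higher values. Per cell, Mal averaged 4.81, 2.30 and 3.65 UMIs in Sevoflurane libraries, against 1.39, 2.44 and 1.85 UMIs in Control libraries, and on this scale the groups overlapped.

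At 1000 UMIs per cell, 43.9% ± 10.8 of endothelial cells had a Mal UMI in Sevoflurane libraries and 24.3% ± 5.83 in Control libraries (SD, n = 3 each). In neurons the share was 1.67% to 3.81% over all libraries, far below the endothelial one. Median depths were 2678 to 4968 UMIs for endothelial cells and 7793 to 9691 UMIs for neurons. The class held 42, 116 and 170 cells in Sevoflurane libraries, against 159, 70 and 93 cells in Control libraries. The adjusted p was 0.127 without Control 1 and 0.0514 without Control 3, and 0.0284 without Sevoflurane 1. The other 5 members tested in endothelial cells had adjusted p of 0.683 or more, with Mbp at 80.0 ± 25.7 CPM in Sevoflurane and 71.5 ± 31.6 CPM in Control (SD, n = 3 each). Rgs5, a marker of mural cells, and the haemoglobin gene Hbb-bs were among the leading genes of the cluster, and their part in the result was not tested.

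The Mal effect was larger in endothelial cells than in oligodendrocytes. The difference was 1.09 ± 0.22 (log2, SE, edgeR adjusted p = 0.00844), where 0.652% of 12416 genes passed. This comparison was chosen after the values were seen, and without Control 1 its adjusted p was 0.107.

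**Figure D4:**
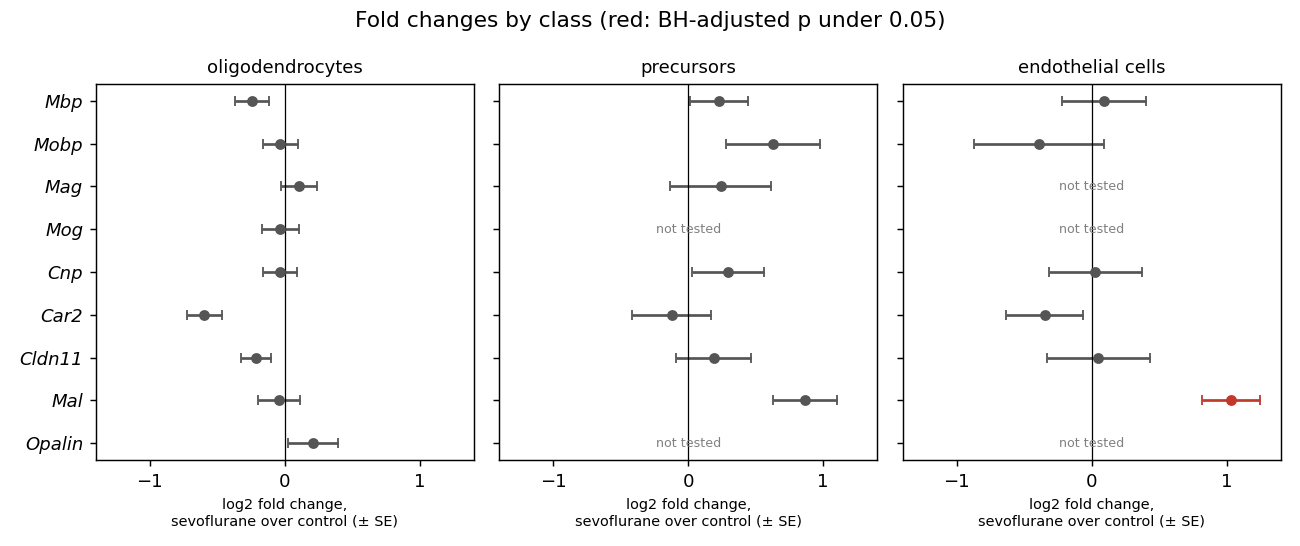
Log2 fold change of Sevoflurane over Control with its SE for each gene in oligodendrocytes, precursors and endothelial cells. Mal in endothelial cells, at 1.03, is the only point in red, which marks an adjusted p under 0.05.

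Across astrocytes, neurons, microglia and ependymal cells, 0 members passed the test, where 2.08%, 4.09%, 0.371% and 0.567% of genes did. Over these classes and endothelial cells, the values other than those of Car2 and Mal had log2 fold changes of -0.83 to 0.78 and adjusted p of 0.323 to 0.998. The lowest was Mobp in microglia, at 39.7, 28.9 and 31.2 CPM in Sevoflurane libraries, against 81.5, 45.3 and 53.3 CPM in Control libraries (edgeR adjusted p = 0.323). It rests on 142 UMIs over all libraries. Mal in the 4 classes other than endothelial cells had log2 fold changes of 0.09 to 0.32 and adjusted p of 0.601 to 0.965.

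Other genes of the lineage were taken from lists. Of 38 genes of myelin structure and lipids, all 38 were tested in oligodendrocytes and 0 were called. Their median log2 fold change was -0.12, beside 0.01 for all genes tested in the class. The lists of carbonic anhydrases and bicarbonate transporters (13 tested), claudins and MAL family (9 tested) and mature oligodendrocyte states (15 tested) had 0 called in oligodendrocytes, with medians of -0.14, -0.17 and 0.08. Of 19 lineage transcription factors tested, 2 were called and both were lower, where 0.402% of all genes tested were called lower. Their median log2 fold change was -0.05. Tcf7l2, a Wnt pathway factor active in differentiating oligodendrocytes, stood at 39.2 ± 3.42 CPM in Sevoflurane and 68.5 ± 7.08 CPM in Control (SD, n = 3 each; log2 fold change -0.81 ± 0.13 SE, edgeR adjusted p = 0.0246). Sox6, which holds precursors undifferentiated, stood at 11.9 ± 0.87 CPM in Sevoflurane and 26.1 ± 7.38 CPM in Control (SD, n = 3 each; log2 fold change -1.14 ± 0.22 SE, edgeR adjusted p = 0.0454). The Sox6 call was lost when any 1 library was left out (adjusted p 0.0635 to 0.145), and that of Tcf7l2 without Sevoflurane 2 or any 1 Control library (up to 0.114). With the trend over gene length removed, both calls were also lost (adjusted p 0.0967 for Sox6 and 0.0527 for Tcf7l2). Keeping the 9 members for clustering lost both as well (0.147 for Sox6 and 0.068 for Tcf7l2). That clustering left a cluster of 1593 cells that best matched oligodendrocytes unnamed. The Sox6 call was lost with doublets kept as well (edgeR adjusted p = 0.25). The Sox6 level in oligodendrocytes was low beside precursors, whose means were 1121 CPM in Sevoflurane and 1800 CPM in Control. A contribution of free RNA or of precursors to the oligodendrocyte values was not tested.

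In precursors, where 0.778% of genes were called lower, Sox6 was 1 of them, at 1121 ± 144 CPM in Sevoflurane and 1800.0 ± 66.5 CPM in Control (SD, n = 3 each; log2 fold change -0.68 ± 0.11 SE, edgeR adjusted p = 0.00293), and leaving out any 1 library kept the call, while removing the trend over gene length did not (adjusted p = 0.0616). Grm3, a metabotropic glutamate receptor, had a log2 fold change of -1.14 ± 0.25 (SE, edgeR adjusted p = 0.0256). Car10, a carbonic anhydrase-related protein without enzyme activity, had a log2 fold change of -0.55 ± 0.13 (SE, edgeR adjusted p = 0.0471). The Grm3 call was lost in 4 of the 6 fits without 1 library, and the Car10 call in 5 (all but that without Control 3). Both were also lost with doublets kept (adjusted p 0.546 for Grm3 and 0.121 for Car10) and with the trend over gene length removed (0.135 for Grm3 and 0.367 for Car10). In precursors these 3 were the only list genes called, out of 27 tested for myelin structure and lipids (median log2 fold change 0.10), 17 transcription factors (-0.38), 9 carbonic anhydrases and transporters (-0.26), 6 claudins and MAL family genes (0.09) and 8 genes of mature states (0.06), beside 0.01 for all genes tested.

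Genes with a pattern much like that of the members over 42 class and library sums were Qdpr (mean Pearson r of 0.859 with the 9 genes), Gm26747 (0.855), Gm36849 (0.853) and Mucl2 (0.852). The sums share libraries and free RNA, so this is a description. Qdpr encodes dihydropteridine reductase, which recycles tetrahydrobiopterin.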

How the data were processed

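Each library's deposited matrix held UMI counts, whole numbers per gene and barcode. Cell Ranger 6.1.1 wrote them, according to the file headers. The submitters' processing notes also name CASAVA 1.8 and Seurat. Build, annotation and strand setting are not given in the sources used here. The labels' protocols describe collagenase digestion. Nothing ties each library to its own animal beyond the statement that 6 mice were used, so p-values measure the spread between libraries.

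Cells needed 500 UMIs, 300 genes and no more than 20% mitochondrial UMIs, and 5.64% to 7.81% of cells per library were removed as doublets (Scrublet, top 0.8% per 1000 cells). Libraries shared at most 0.333% of barcodes. Clustering (scanpy 1.11.5, Leiden resolution 1, the 9 genes left out) gave 35 clusters, 32 of them named in 11 classes from fixed markers. Oligodendrocyte cluster 1 had none of its markers among its top 10 genes, and its median UMI count was 0.356 of its libraries', close to the lower limit of 0.333.

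UMI counts were summed per class and library and tested with edgeR 4.0.16 (quasi-likelihood, TMM, filterByExpr) in 7 classes, those with 20 or more cells per library, with Benjamini-Hochberg adjustment over all genes of a class and a threshold of 0.05. CPM beside a test are TMM-scaled, and lineage percentages use unscaled CPM. Differences between classes were interactions with library as a block. Alternatives were DESeq2 1.42.0 and its size factors, no filter, other clusterings, doublets kept and free RNA subtracted. Further ones were a length trend removed, a replicate block and each library left out. Free RNA was set, per member and library, at the lowest mean UMIs per cell in any class outside the lineage. Classes of under 20 cells in that library were left out of it. The tests in oligodendrocytes and in precursors were run on simulated data as well. The endothelial test and the differences between classes were not. The members and lists were chosen with earlier results of these data known. Named genes were the members, list genes called in oligodendrocytes or precursors, and the 5 genes of most similar pattern, 1 of which is not reported here.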

Additional observations from a re-analysis of the deposited data

Results flagged for a closer look

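The effect on Mal differed between endothelial cells and oligodendrocytes. The log2 effect in endothelial cells minus that in oligodendrocytes was 1.09 ± 0.22 (SE, edgeR interaction test with library as a block, adjusted p = 0.00844), where 0.652% of 12416 genes passed. Mal was higher in all 3 Sevoflurane libraries than in any Control library in endothelial cells, and overlapped between the groups in oligodendrocytes. The test was chosen after seeing the data, and without Control 1 the adjusted p was 0.107. Its cause was not tested.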

How the results depend on the processing

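The count of members called in oligodendrocytes, 0, became 1 (Car2) with no low-count filter, with DESeq2, with doublets kept and with free RNA taken off, and stayed 0 without any 1 library. In precursors it became 1 with no filter. In classes outside the lineage it was 1, became 2 with no filter and 0 with the replicate block, and ran from 0 to 1 without 1 library. For the difference between oligodendrocytes and precursors it became 1 (Mal) with free RNA taken off, a setting that puts precursor counts at or near 0 by its construction.

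Genes called in oligodendrocytes, 63, became 514 with no filter, 149 with DESeq2, 39 with the length trend removed, 22 in cluster 1 alone and 41 in cluster 6 alone, and ran from 5 to 84 without 1 library. Genes called in precursors, 80, became 160 with no filter, 121 with DESeq2, 29 with doublets kept and 10 with the length trend removed, and ran from 3 to 94 without 1 library. The causes were not tested.

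Replicate numbers did not pair the libraries: same-numbered deviations correlated at -0.09, -0.09 and 0.00 in oligodendrocytes. With the replicate block, 30 genes were called in oligodendrocytes and 10 in precursors. The adjusted p of Mal in endothelial cells was then 0.0571, and 4 of the 5 calls among list genes were lost.

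Some directions turned with the setting. With the members kept for clustering, the difference in the oligodendrocyte share was -1.17 percentage points (Sevoflurane minus Control). That setting left a cluster of 1593 cells that best matched oligodendrocytes unnamed for its low UMI counts. Without 1 library the difference in the oligodendrocyte share ran from -1.58 to 1.34, and that of committed precursors from -0.0698 to 0.0316. In cluster 6 alone the log2 fold changes were 0.004 for Mobp, 0.051 for Mog and 0.037 for Cnp. With free RNA taken off, Cnp was -0.751 in precursors, and the difference between classes was 0.505 for Cnp and 0.211 for Car2. The Cnp level taken off was 0.125, 0.116 and 0.0581 UMIs per cell in Sevoflurane libraries 1 to 3. In Control libraries 1 to 3 that level was 0.107, 0.0303 and 0, the last from mural cells. The class that set the level varied between libraries. With doublets kept, Car2 in precursors was 0.002. Without 1 library, log2 fold changes in oligodendrocytes ran from -0.138 to 0.033 for Mobp, -0.046 to 0.199 for Mag, -0.141 to 0.097 for Mog, -0.138 to 0.1 for Cnp, -0.228 to 0.118 for Mal and -0.025 to 0.409 for Opalin. In precursors they ran from -0.107 to 0.711 for Mag, -0.456 to 0.221 for Car2 and -0.159 to 0.345 for Cldn11. The difference between classes ran from -0.567 to 0.123 for Mag and -0.115 to 0.860 for Opalin. The difference in the Mal effect between endothelial cells and oligodendrocytes did not turn, and ran from 0.941 to 1.22 without 1 library. Depth limits the precursor values: Mal there rests on 16 to 64 UMIs per library.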
